A study of Drosophila melanogaster with 36 samples.

Results

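The members described here are narrow promoters of the fruit fly Drosophila melanogaster, that is, genes whose transcription started from 1 short stretch of DNA. A gene was taken where the authors' list of peaks attributed to genes held exactly 1 peak for it, the peak was at most 20 bp wide and its score, as the authors gave it, reached a set limit. The rule selected 591 peaks of 24264, or 591 genes of 12705 with a peak (4.65%). Of the 7597 genes with 1 peak, 5952 reached the score limit, and the members were 9.93% of those; 3183 of the others had a peak of 21 to 99 bp (middle width) and 2178 one of 100 bp or more (broad). The members were selected on these measured values, the width and score of the peak, so both are given as description only.

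A promoter is the DNA around the start of a gene at which RNA polymerase II and the general transcription factors assemble. Promoters with focused initiation place nearly all starts within a few bases and are known in flies for core elements such as the TATA box and the initiator and for genes used in particular tissues or at particular times. Promoters with dispersed initiation spread their starts over many bases and are known for genes that most cells use. Start sites were mapped with RAMPAGE, which sequences complementary DNA that reaches the capped 5′ end of an RNA.

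The strain was y; cn bw sp. Whole animals were pooled and profiled at 36 stages, with 1 library a stage and no replicate of any stage. The 24 embryo libraries covered 1 h windows from 0 to 24 h after egg laying. The larval libraries were L1, L2 and L3 with dark, light and clear gut, the pupal libraries were days 1 to 5 after the white prepupa (WPP), and the adults were males and females aged 5 days. For testing, the embryo windows were taken as 6 periods of 4 neighbouring libraries, and larvae and pupae as 5 libraries each. No treatment was given and no allele beyond those of the strain differed between groups. The embryos, the larvae with pupae, and the adults were 3 separate multiplexed libraries, and adult RNA was extracted and sequenced differently, so no test crosses them. The libraries held 698702 reads (7 to 8 h) to 16690598 reads, and the L3 dark gut library, with 873086 reads, had 5520 genes above 0. All 5 pupal columns list every minus-strand gene at 0, so pupal values are given for plus-strand genes alone. Each column sums to 1000000, so pupal values of plus-strand genes stand on a higher scale than those of other stages. Stage markers were set beside the labels: the yolk protein genes summed to 14318 RPM (reads per 1000000 reads in genic peaks) in the female library and 37.5 RPM in the male, and genes of the male tract and testis to 6276 RPM in the male and 0.177 RPM in the female.

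Of the 591 members, 590 were in the authors' table of signal per gene, and Osi21 was not in it. A symbol was matched for 576, and 284 had a symbol other than a CG or CR number. Some entries repeat a signal: stg1 is listed under CG11566 and CG33670 with equal adult values. CG2217 and CG42740 also have equal adult values. Such entries are counted as separate members throughout. The peaks had a median width of 14 bp: 19 were 1 to 5 bp wide, 136 were 6 to 10 bp, 185 were 11 to 15 bp and 251 were 16 to 20 bp. Across the 591 members, wider peaks tended to have higher scores (Spearman rho 0.303 over members, which are not independent). The median score was 390, against 784 for middle and 2848.5 for broad peaks. Across 7591 single-peak genes the score ran with the reads of the gene summed over 36 libraries (Spearman rho 0.964), so score and read depth cannot be told apart. The members just inside the width limit of 20 bp with the highest scores were Hsp67Bc (3275), Inos (2826), l(1)sc (2386), Npc2d (2332) and Dup99B (2230). Just outside it, with 21 bp, were Ocho (4568), ac (3113), E(spl)m6-BFM (2952), phu (1629) and AstC (1581). Closest inside the score limit were GC, Jhbp3 and Sfp84E (at the limit itself), PGAP5 (137) and CAH5 (139), and closest outside it sNPF-R and Acsx1R (133 each), antr (132), scw and mthl9 (130 each). The width limit thus ran between l(1)sc and ac, which belong to the same achaete-scute complex.

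Genes with a narrow promoter had their highest embryo window most often in 20 to 24 h. A gene was counted in a library at 2 RPM or more. By this count members were detected in a median of 7 of 24 embryo libraries, genes with a middle peak in 14, genes with a broad peak in 24 and all genes of the table in 19. Only 5 members (0.847%) reached 2 RPM in all 24 embryo libraries, against 18.1% of middle, 53.5% of broad and 36.4% of all genes, and 149 (25.3%) reached it in none. The highest library held a median of 25.3% of a member's summed embryo signal, against 15.0% for middle, 11.4% for broad and 13.3% for all genes. Of the 519 members above 0 in at least 1 embryo library, 240 (46.2%) were highest in 20 to 24 h and 23 (4.43%) in 0 to 4 h. For all genes these shares were 16.8% and 30.2%. These counts of maxima have no RPM minimum and include genes with few reads. In the libraries of 0 to 4 h 1 read was worth 0.109 to 0.353 RPM, and in those of 20 to 24 h 0.370 to 0.781 RPM. Whether this moved the maxima of low genes was not tested. A further 105 members (20.2%) were highest in 12 to 16 h and another 105 in 16 to 20 h, with 21 in 4 to 8 h and 25 in 8 to 12 h.

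Because depth, score and width move together, the same counts were made within ranges of the score, chosen after the data were seen. At a score of 600 or more, members were detected in a median of 9 embryo libraries, middle peaks in 21 and broad peaks in 24. At scores from 300 to below 600 the medians were 8, 11 and 10, and below 300 they were 5, 1 and 3.5, so that in the lowest range the members were not the genes with the fewest libraries. The share with the highest window in 20 to 24 h was 40%, 51.3% and 48.4% of members from the lowest range to the highest. It was 22.9%, 18.9% and 17.4% for middle peaks and 14.5%, 22.8% and 8.35% for broad peaks. The late maximum of members was thus present in each range of the score, while the small number of windows was present above a score of 300.

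**Figure D1:**
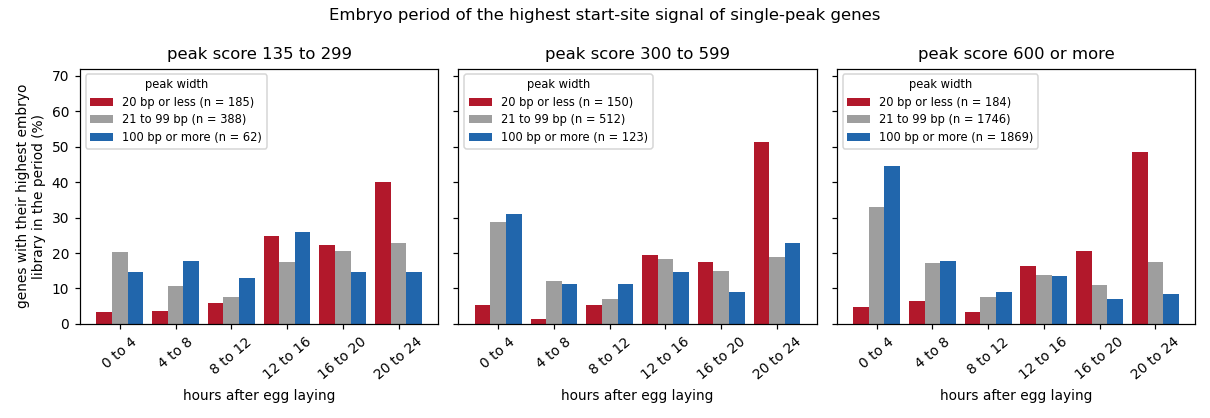
Share of single-peak genes (%) whose highest embryo library fell in each 4 h period after egg laying, for peaks of 20 bp or less, 21 to 99 bp and 100 bp or more, in 3 ranges of the peak score. In each range the narrow peaks stand highest at 20 to 24 h, with 40%, 51.3% and 48.4%.

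The 5 members at 2 RPM in every embryo library were the homeobox genes bap and eve, the non-coding RNA lncRNA:CR42491 and 2 genes without a symbol, FBgn0259144 and FBgn0025701; they are named here because of their values. eve, a pair-rule segmentation gene with a 6 bp peak on chromosome 2R, 5866821 to 5866826 (dm3, plus strand), had a lowest embryo value of 2.06 RPM at 19 to 20 h, a median of 16.9 RPM and a highest value of 120 RPM at 2 to 3 h. lncRNA:CR42491 (chromosome X, 657834 to 657844, minus strand) was 2.62 RPM at 0 to 1 h, had a median of 47.6 RPM and was highest, 286 RPM, at 7 to 8 h. FBgn0025701 (chromosome 3R, 7394946 to 7394957, plus strand) was the one plus-strand member at 2 RPM or more in all 36 libraries, with 251 RPM at 14 to 15 h in the embryo and 167 RPM on pupal day 2.

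Few members lay close to an oppositely directed start. A genic peak of the other strand within 1000 bp upstream was present for 86 of 591 members (14.6%), for 30.1% of middle and for 39.9% of broad peaks. The median distance to such a peak was 5693 bp for members, 3695 bp for middle and 2305 bp for broad peaks. In a later annotation of the genome, 61.3% of the matched members had 1 annotated transcript, as had 63.3% of middle and 49.7% of broad genes, and 19.3%, 20.6% and 15.2% had no intron. Several members were neighbours from gene families. Within gaps of at most 10000 bp, the cuticle genes Cpr65Au, Lcp65Ae, Cpr65Aw, Lcp65Ad and Lcp65Aa lay on chromosome 3L between 6125224 and 6144422 (dm3). The immune peptide genes BomS4, BomT2, BomS5 and BomS6 lay on 2R between 14272068 and 14278136. The maltase genes Mal-A4, Mal-A6 and Mal-A8 lay on 2R between 4346315 and 4359473, and the late larval genes Eig71Ed, Eig71Ee and Eig71Eg on 3L between 15645638 and 15654966. Npc2e, Npc2d and Npc2c (3R, 5879028 to 5885963) and GstD10, GstD5 and GstD8 (3R, 8191463 to 8205730) formed further groups.

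Members gave a small part of the signal in embryos and a larger part later. Of all genic signal, they held 0.0436% at 0 to 1 h and 0.948% at 22 to 23 h, the highest share of an embryo library. L1 and L2 larvae gave 1.13% and 1.49%, the 3 L3 libraries 2.45% with dark, 1.84% with light and 1.98% with clear gut. The adult male library gave 2.02% and the female library 1.19%. On plus-strand genes alone, where pupae can be set beside the rest, the share was 0.0381% at 0 to 1 h, at most 0.918% in an embryo library (21 to 22 h) and 3.21% in L3 with dark gut. The pupal libraries of days 1 to 5 gave 1.85%, 1.31%, 2.01%, 0.83% and 0.763%. Every larval library was above every embryo library, and pupal days 4 and 5 lay within the range of late embryos. These are 3 multiplexed libraries, so stage and library cannot be told apart in comparisons between embryos, larvae and adults. Between 32 members (1 to 2 h) and 315 members (19 to 20 h) reached 2 RPM per embryo library, and 344 did so in males and 260 in females. Early shares rested on few genes: the 10 highest members held 90.3% of member signal at 5 to 6 h and 27.4% at 23 to 24 h. In bulk libraries of whole animals, fewer cells of a type and less RNA per cell cannot be told apart.

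**Figure D2:**
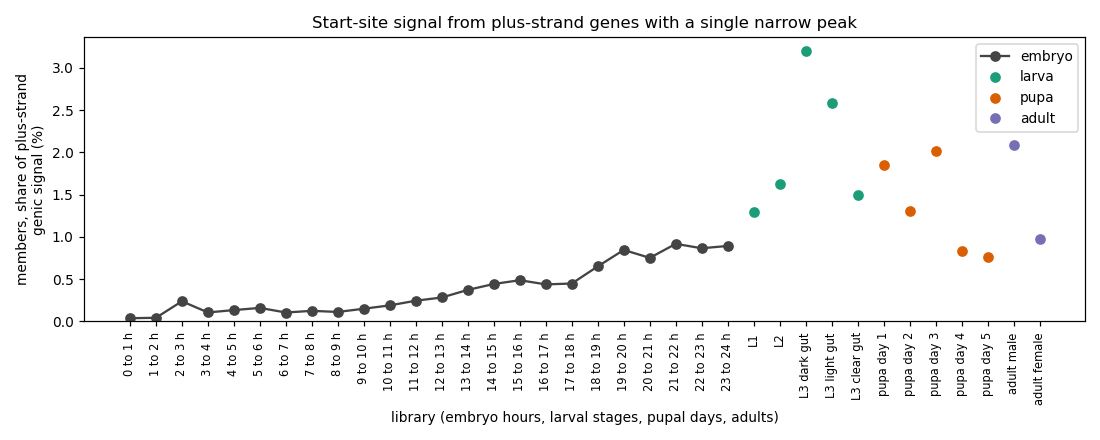
Share of plus-strand genic signal (%) held by the 309 plus-strand members, by library. The share is below 1% in every embryo library and highest, 3.21%, in L3 larvae with dark gut.

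Of the 309 plus-strand members, 116 (37.5%) had the highest value of their life cycle in a pupal library, 71 (23.0%) in an embryo library, 59 (19.1%) in a larval library, 48 (15.5%) in males and 15 (4.85%) in females. Of all 6314 plus-strand genes, 49.2% were highest in pupae, 32.01% in embryos, 7.22% in larvae, 8.58% in males and 2.95% in females. Members were thus highest in pupae and embryos less often than all genes, and in larvae and adults of either sex more often. The 83 plus-strand members at 2 RPM in no embryo library were highest in pupae (31), males (23), larvae (17) or females (12). Pupal columns hold plus-strand signal alone at the same column sum, so pupal values are raised beside those of other stages. All these counts of maxima therefore lean toward pupae, and they were not repeated on rescaled values. At 2 RPM, 11 plus-strand members were seen in exactly 1 of the 36 libraries and 66 in 18 or more.

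The share of narrow peaks differed widely between gene families. Counted among single-peak genes at the score limit, narrow peaks made up 17 of 26 neuropeptide and peptide hormone genes (65.4%), 13 of 24 antimicrobial and immune-induced peptide genes (54.2%) and 15 of 33 patterning and cell fate transcription factors (45.5%). They made up 4 of 8 maltases and amylases, 11 of 25 Npc2, yellow and juvenile hormone-binding genes, 8 of 20 peritrophic, chitin-binding and mucin genes, and 7 of 20 odorant-binding protein genes. Of 62 CPR and related cuticle genes 21 were members (33.9%), as were 9 of 30 neurotransmitter and neuropeptide receptors, 8 of 24 neuronal adhesion genes of the dpr, DIP and beat families and 11 of 33 cytochrome P450 genes. The base share was 9.93%. Some families had smaller shares than those above, on small counts, though still above the base share over all scores. These were the Tweedle cuticle genes (4 of 18), the testis genes (6 of 27), the glutathione and UDP-glycosyl transferases (8 of 38), the Jonah and trypsin proteases (3 of 17), the seminal fluid protein genes (6 of 36) and the E(spl) and Bearded genes (2 of 13). Of 4 lysozymes none was a member. None of 34 cytoplasmic ribosomal protein genes, 57 mitochondrial ribosomal protein genes, 20 proteasome subunits or 46 respiratory chain genes was a member. The lists hold 167 of the 591 members, so most members belong to no list.

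**Figure D3:**
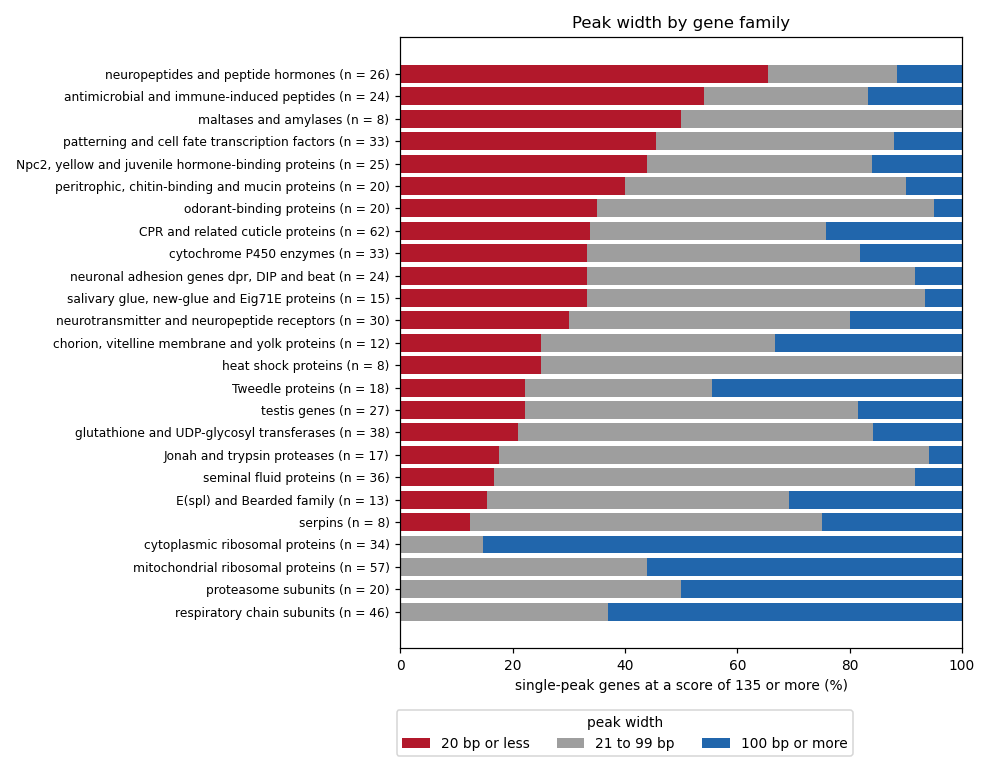
Share of single-peak genes at or above the score limit (%) by peak width for each gene family, with the number of genes counted in brackets. Neuropeptides stand highest in narrow peaks with 65.4%, and the ribosomal, proteasome and respiratory chain families have none. The shares were not taken within ranges of the score.

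The comparison of 4 to 8 h with 0 to 4 h covers the change from early to middle embryogenesis, when patterning gives way to formation of the germ layers. A gene was tested where it reached 2 RPM in at least 3 of the 24 embryo libraries, which 404 members and 9940 genes in all did, and it counted as changed where limma on log2(RPM + 1) gave an adjusted p (Benjamini-Hochberg) under 0.05 and at least a 2-fold difference. The windows of a period are neighbouring stages, so these p-values measure the spread between neighbouring hours, not between replicates. A gene may pass this filter through 1 period alone, so counts of members are a description in this and the later embryo comparisons. The same holds for p-values of single genes listed at or near 0 in the other period. Of members tested 37 changed, where 17.8% of all genes did: 25 were higher at 4 to 8 h (6.19% of members tested, against 9.3% of all genes) and 12 lower (2.97%, against 8.53%), and the median log2 difference was 0.02 for members and 0 for all genes. Without the 0 to 1 h library 15 were higher, and without the 3 to 4 h library 33 were. In a fit of only the 8 libraries compared 7 were higher, and fewer than 12 were lower. The 3 to 4 h library held 718 RPM in 3 late cuticle marker genes, where the other libraries of 0 to 4 h held 0.109 to 114 RPM the 4 to 5 h library 0.289 RPM and the libraries of 5 to 8 h 246 to 541 RPM; whether this bears on the member counts was tested only by leaving that library out.

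The named members that fell were high in 2 to 4 h or in 0 to 4 h as a whole. nullo, which acts in the formation of the first cells of the embryo (chromosome X, 6943507 to 6943522, plus strand), was 24.8, 20.9, 322 and 2.22 RPM in the windows of 0 to 4 h and 0.868, 0, 0.168 and 0 RPM in those of 4 to 8 h. Its signal thus stood in 1 window, 2 to 3 h, and the groups did not overlap (log2 change -4.51 ± 0.72 SE, adjusted p 0.000167, limma). zen, the homeobox gene that specifies the dorsal amnioserosa (3R, 2579900 to 2579919, minus strand), was 4.05, 8.22, 87.8 and 34.7 RPM, then 0.579 RPM at 4 to 5 h and 0 in the next 3 windows (-4.13 ± 0.52, adjusted p 1.65e-05, limma). Bro, the CBF-beta-type partner of Runt-family factors, had the same course in time, with 95.2 RPM at 2 to 3 h and at most 0.579 RPM in 4 to 8 h (-3.39 ± 0.60, adjusted p 0.00037, limma). The other named falls were Sodh2, a sorbitol dehydrogenase, from 8.71 ± 3.44 to 1.70 ± 1.20 RPM (SD, n = 4 windows each; adjusted p 0.00776, limma), and Sp7, a serine protease of the melanization pathway, from 3.77 ± 2.28 to 0.198 ± 0.245 RPM (adjusted p 0.00225, limma). Both of these came back late, at 28.1 ± 1.54 RPM for Sodh2 and 7.31 ± 3.06 RPM for Sp7 in 20 to 24 h, and both of these late rises passed the test.

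The 5 largest named rises were bap, btl, Hsp67Bc, lmd and nab. bap, the homeobox gene of the visceral mesoderm (3R, 17214601 to 17214615, plus strand), went from 2.62, 4.23, 18.3 and 19.2 RPM to 40.5, 183, 97.5 and 71.6 RPM, without overlap (3.21 ± 0.60, adjusted p 0.000585, limma). btl, the FGF receptor of the tracheal system (3L, 14070162 to 14070180, plus strand), went from 0.219, 0.249, 0 and 0.933 RPM to 4.92, 3.15, 8.56 and 10.0 RPM (2.45 ± 0.37, adjusted p 0.000117, limma). lmd, a zinc finger factor of the fusion-competent muscle precursors, and nab, a transcriptional cofactor, rose by 2.27 ± 0.57 and 2.26 ± 0.56 (adjusted p 0.00664 and 0.00533, limma), and the groups overlapped for lmd. Hsp67Bc, a small heat shock protein (3L, 9365579 to 9365598, minus strand), was 0.109, 1.25, 2.12 and 2.92 RPM and then 4.34, 7.10, 13.9 and 50.1 RPM, so each window of 4 to 8 h stood above all of 0 to 4 h (2.52 ± 0.53, adjusted p 0.00157, limma). In this comparison 9.3% of all genes tested were higher and 8.53% lower, and of members 6.19% and 2.97%. Of the 15 patterning and cell fate factors 5 rose (bap, btn, lmd, nab and Prdm13), zen fell and 9 did not pass (median log2 difference of the 15, 1.37). Among those 9, eve was 51.9 ± 50.2 RPM in 0 to 4 h and 20.4 ± 15.9 RPM in 4 to 8 h, and l(1)sc, a proneural gene of the achaete-scute complex, was 69.4 ± 58.8 and then 249 ± 165 RPM (SD, n = 4 windows each).

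Between 4 to 8 h and 12 to 16 h, which spans the end of neurogenesis and the start of differentiation, more members were called, most of them higher. Of 404 members, 196 (48.5%) were higher and 20 (4.95%) lower, where 28.3% and 15.8% of all genes were. The median log2 difference was 1.17 for members and 0.18 for all genes. Of genes with middle peaks 30.7% were higher and with broad peaks 20.7%. At a score of 600 or more these shares were 47.4% of 154 members, 28.8% of middle and 19.4% of broad genes, and below 300 they were 53% of 134 members, 36.0% and 40.9%. A gene can pass the filter through 1 period alone, so these shares by peak width are a description. In all, 216 members (53.5%) were called, where 44.1% of all genes were. Of the 216, 149 had groups that did not overlap, 175 stayed called whichever of the 24 libraries was left out, and 210 had an adjusted p below 0.05 in edgeR. These checks were counted for members only, so no share over all genes stands beside them.

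The largest named falls were in genes of neurogenesis, of dorsoventral patterning of the nerve cord and of steroid synthesis. E(spl)m5-HLH, a Notch-induced repressor of neural fate (3R, 21855444 to 21855462, minus strand), stood at 969, 2215, 1103 and 65.8 RPM in 4 to 8 h and at 12.3, 15.6, 5.81 and 1.51 RPM in 12 to 16 h (-6.33 ± 1.00, adjusted p 1.61e-05, limma). BobA, a Bearded-family inhibitor in the Notch pathway (3L, 14939208 to 14939226, minus strand), stood between 175 RPM (7 to 8 h) and 334 RPM (4 to 5 h) and then at 3.34, 2.73, 0.775 and 1.89 RPM (-6.50 ± 0.78, adjusted p 6.12e-07, limma); Bearded-family copies are close in sequence, so its reads are uncertain. l(1)sc (X, 303752 to 303771, plus strand) went from 414, 364, 136 and 81.6 RPM to 1.11, 1.95, 0.387 and 0 RPM (-6.89 ± 0.75, adjusted p 1.71e-07, limma). For all 3 the lowest window of 4 to 8 h lay above the highest of 12 to 16 h. ind, a homeobox gene of the intermediate column of the neuroectoderm, fell from 31.6 ± 27.2 to 0.195 ± 0.225 RPM (adjusted p 0.000179, limma), and dib, a P450 enzyme of ecdysone synthesis, from 29.2 ± 11.1 to 0.339 ± 0.556 RPM (adjusted p 3.63e-06, limma). Of the 15 patterning factors 6 fell (ind, Prdm13, bap, gt, l(1)sc and lmd), Fer2 and Drgx rose and 7 did not pass (median -0.52). Over all genes tested 15.8% were lower and 28.3% higher, and over members 4.95% and 48.5%.

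Most members of the lists of neuronal surface proteins and receptors rose. All 8 members of the dpr, DIP and beat families of neuronal surface proteins rose, with a median log2 difference of 1.94. In this comparison 28.3% of all genes tested and 48.5% of members were higher. beat-Vc (3R, 8608926 to 8608945, minus strand) was 0, 0, 0.504 and 0 RPM in 4 to 8 h and 7.80, 26, 45.3 and 52.6 RPM in 12 to 16 h (4.65 ± 0.59, adjusted p 1.07e-06, limma). DIP-epsilon went from 6.86 ± 2.93 to 17.7 ± 6.11 RPM; it passed narrowly (adjusted p 0.0489, limma), stayed called in 7 of 24 fits that left out a library, and its groups overlapped. dpr18 went from 0.0420 ± 0.0839 to 2.89 ± 2.74 RPM (adjusted p 0.00461, limma). Of 9 receptor genes 7 rose (median 1.58). Dh44-R1, a diuretic hormone receptor with a 10 bp peak (2R, 10265602 to 10265611), was listed at 0 in all 4 windows of 4 to 8 h and at 0, 2.34, 4.65 and 3.41 RPM in 12 to 16 h (adjusted p 0.0071, limma). The nicotinic acetylcholine receptor genes nAChRbeta3 and nAChRbeta2 did not pass, with 2.95 ± 1.81 and 5.64 ± 3.32 RPM for nAChRbeta3 and 2.17 ± 1.87 and 3.95 ± 4.45 RPM for nAChRbeta2. Syn1, a syntrophin-like adaptor of the dystrophin complex (3L, 21763622 to 21763639, minus strand), was 0, 0.789, 0.839 and 0 RPM and then 16.7, 44.1, 41.1 and 40.1 RPM (4.67 ± 0.51, adjusted p 1.71e-07, limma).

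Of the 21 CPR and related cuticle members 14 were tested in the same comparison, of which 8 rose and none fell (median log2 difference 1.91). Over all genes tested 28.3% were higher, and over members 48.5%. Cpr65Eb (3L, 7081874 to 7081890, minus strand) was 0, 1.58, 1.85 and 1.43 RPM in 4 to 8 h and 15.6, 58.6, 142 and 139 RPM in 12 to 16 h (5.02 ± 0.87, adjusted p 5.07e-05, limma). Cpr66Cb (3L, 8329755 to 8329769, plus strand) was 0, 0.789, 2.01 and 1.43 RPM and then 12.3, 39.3, 122 and 184 RPM (4.96 ± 0.82, adjusted p 2.86e-05, limma). For both, the lowest later window stood above the highest earlier one. ChLD3, a chitin-binding protein, rose from 0.353 ± 0.326 to 29.8 ± 21.7 RPM (adjusted p 3.14e-06, limma). Ccp84Ab, another cuticle gene, rose from 0.899 ± 1.13 to 37.8 ± 35.3 RPM (adjusted p 0.000945, limma), but its neighbour Ccp84Aa is close in sequence and reads of the pair may be shared.

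The last embryonic comparison, 20 to 24 h with 12 to 16 h, covers the maturation of organs before hatching. Of 404 members 190 (47.0%) were higher, against 12.6% of all genes, and 50 (12.4%) were lower, against 16.8%. The median log2 difference was 1.08 for members and -0.36 for all genes. With libraries scaled by the median of ratios, the median of all genes moved to 0.10, all-gene calls went from 1253 higher and 1674 lower to 1809 and 863, and member calls to 223 higher and 45 lower. Of middle genes 16.8% were higher and of broad genes 7.65%. At a score of 600 or more the shares were 54.5% of 154 members, 16.4% of middle and 6.68% of broad genes, and below 300 they were 42.5% of 134 members, 18.2% and 11.4%. By median, members reached 2 RPM in 7 of the embryo libraries, middle genes in 14 and broad genes in 24. A gene can pass the filter through 20 to 24 h alone and is then tested on it, so these shares by peak width are a description. In all, 240 members (59.4%) were called, where 29.4% of all genes were. Groups did not overlap for 205 of the 240, and 196 stayed called whichever library was left out. These checks too were counted for members only.

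**Figure D4:**
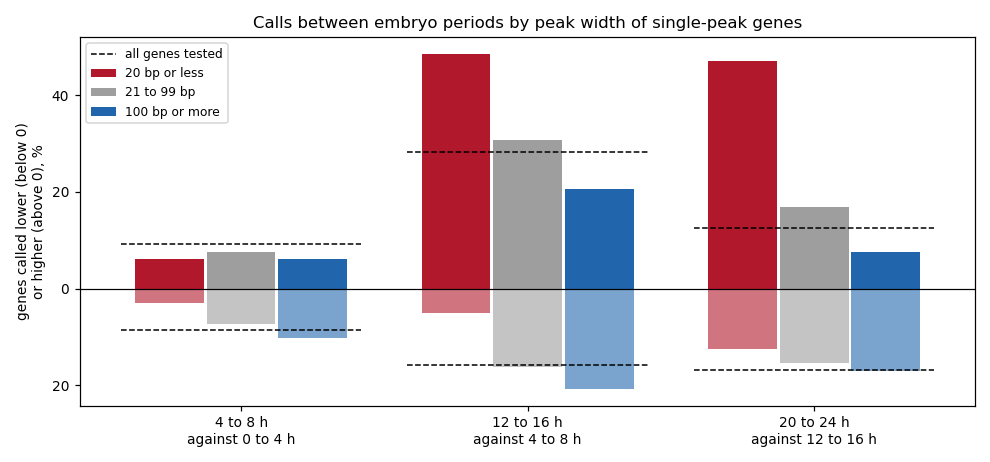
Share of tested single-peak genes (%) called higher (above the line) and lower (below it) in the 3 embryo comparisons, by peak width. Narrow peaks have 48.5% higher calls at 12 to 16 h and 47.0% at 20 to 24 h, above both wider classes.

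In the protease list 2 of 3 members rose, and in the list of peritrophic, chitin-binding and mucin genes 3 of 4 rose and 1 fell. Over all genes tested 12.6% were higher, and over members 47.0%. The 3 gut marker genes Jon25Bi, Jon99Fi and alphaTry, which are not members, summed to 22.3 to 162 RPM in the windows of 12 to 16 h and to 2243 to 15902 RPM in those of 20 to 24 h. Their part in these results was not tested. epsilonTry, a trypsin (2R, 7233554 to 7233570, minus strand), was 0, 1.17, 3.10 and 0 RPM in 12 to 16 h and 32.6, 74.5, 204 and 250 RPM in 20 to 24 h (5.95 ± 0.80, adjusted p 2.82e-06, limma). Jon66Cii, a Jonah protease with a 10 bp peak (3L, 8386757 to 8386766), was 0, 0, 0.775 and 0 RPM and then 3.18, 11.3, 16.4 and 36.7 RPM (adjusted p 3.37e-07, limma), and in both genes the hourly values climbed through the last 4 windows. All 4 maltase and amylase members rose (median log2 difference 3.30). Mal-A6 went from 0.664 ± 0.570 to 29.8 ± 16.0 RPM and Mal-A8 from 0.341 ± 0.461 to 6.77 ± 4.07 RPM (adjusted p 3.07e-07 and 3.33e-05, limma). Amyrel, an amylase relative, was listed at 0 in 12 to 16 h and at 1.19, 6.48, 3.91 and 7.78 RPM in 20 to 24 h (adjusted p 1.26e-06, limma). Muc68Ca, a mucin, and Cht9, a chitinase, were likewise listed at 0 and then averaged 12.4 ± 9.67 and 16.0 ± 15.7 RPM (adjusted p 1.15e-06 and 3.02e-05, limma). Genes listed at or near 0 in 12 to 16 h can pass the filter through the later windows, so their p-values are a description. Try29F, a trypsin-like gene, had another course: it was highest at 19 to 20 h, with 92.9 RPM, was 0 in both windows of 22 to 24 h and did not pass.

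Other large rises were in MtnB, Acsx1L and Hpd and in the list of glutathione and UDP-glycosyl transferases. MtnB, a metallothionein (3R, 16329327 to 16329343, minus strand), was 0, 0, 0.387 and 0 RPM and then 18.3, 37.8, 63.3 and 87.1 RPM (5.39 ± 0.56, adjusted p 1.36e-07, limma). Hpd, which degrades tyrosine (3L, 20432956 to 20432973, minus strand), was 3.34, 5.08, 9.68 and 7.19 RPM and then 146, 197, 334 and 343 RPM (5.12 ± 0.56, adjusted p 2.5e-07, limma). Acsx1L, of the acyl-CoA synthetase family, was 1.11, 0.195, 0.775 and 0 RPM and then 21.9, 22.7, 93.0 and 161 RPM (5.20 ± 0.64, adjusted p 9.94e-07, limma). Of 8 glutathione and UDP-glycosyl transferases 6 rose (median log2 difference 1.85), where 12.6% of all genes and 47.0% of members did. GstE3 (2R, 14288219 to 14288233, plus strand) rose in all 3 comparisons, from 3.70 ± 2.20 RPM in 0 to 4 h through 14.3 ± 8.51 and 49.5 ± 19.3 to 275 ± 60.8 RPM, the first of these without clear separation (adjusted p 0.0282, called in 18 of 24 fits without a library, limma). Of 7 P450 genes 3 rose and 1 fell. Cyp4d14 went from 1.30 ± 0.904 to 57.0 ± 16.2 RPM (adjusted p 3.98e-05, limma).

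Most neuropeptide members, which encode precursors of secreted peptide signals, rose in the late embryo. In 12 to 16 h 9 of 15 tested had already passed against 4 to 8 h, and in 20 to 24 h 11 of 15 rose over 12 to 16 h and none fell (median log2 difference 2.07, where all genes had -0.36). In these 2 comparisons 28.3% and 12.6% of all genes, and 48.5% and 47.0% of members, were higher. Their summed signal (17 genes) was 0.109 RPM at 0 to 1 h, 80.6 RPM at 15 to 16 h and 280 RPM at 23 to 24 h. Of the 15 at 2 RPM in an embryo library, 13 were highest in 20 to 24 h. Akh, the adipokinetic hormone that mobilizes stored energy, has an 8 bp peak (3L, 4141570 to 4141577, plus strand) and was 0, 4.49, 6.20 and 4.92 RPM in 12 to 16 h and 33, 49.2, 53.1 and 58.2 RPM in 20 to 24 h (3.63 ± 0.51, adjusted p 5.61e-06, limma). Lk, leucokinin, which acts on the Malpighian tubules (3L, 14553868 to 14553878, minus strand), was 3.34, 6.25, 14.3 and 9.46 RPM and then 26.6, 17.3, 50.0 and 63.3 RPM (2.09 ± 0.51, adjusted p 0.00295, limma). sNPF, a feeding peptide (2L, 20027909 to 20027926, plus strand), was 8.91, 2.73, 6.20 and 6.43 RPM and then 27.8, 31.9, 32.8 and 46.7 RPM (2.40 ± 0.50, adjusted p 0.000665, limma). In all 3 the lowest late window lay above the highest of 12 to 16 h. The 4 that did not pass were Burs, Pburs, Mip and Pdf. By contrast, none of the 8 neuronal adhesion genes passed between 12 to 16 h and 20 to 24 h, and 4 of 9 receptors did; the difference between these lists was not tested.

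Cuticle genes split. Of 14 tested, 8 rose and 3 fell (median log2 difference 2.12). Over all genes tested 12.6% were higher and 16.8% lower, and over members 47.0% and 12.4%. Cpr65Eb fell from the values given above to 0.795, 0.540, 0.781 and 0.370 RPM (-5.37 ± 0.87, adjusted p 3.39e-05, limma), and Cpr66Cb was listed at 0 in all 4 windows of 20 to 24 h (adjusted p 4.59e-06, limma). TwdlQ fell from 4.46, 15.0, 35.2 and 160 RPM to 0.397, 0, 0.781 and 0 RPM (-4.41 ± 0.97, adjusted p 0.000985, limma), while Twdlalpha, of the same Tweedle family (X, 16636916 to 16636930, plus strand), rose from 0, 1.95, 3.10 and 0 RPM to 66.8, 85.3, 91.4 and 66.7 RPM (5.38 ± 0.59, adjusted p 2.47e-07, limma). Twdlalpha can pass the filter through the later windows alone, so its p-value is a description. Cpr49Af, with a 19 bp peak (2R, 8293431 to 8293449, plus strand), rose from 11.1 ± 10.6 to 179 ± 93.1 RPM (adjusted p 0.00192, limma). ChLD3 fell by 4.60 ± 0.59 on the log2 scale (adjusted p 1.75e-06, limma), and spz6, a Spätzle-family ligand that had reached 182 RPM at 12 to 13 h, fell from 61.5 ± 81.0 to 0.135 ± 0.27 RPM (adjusted p 3.98e-05, limma). By their single highest window, 12 of 16 cuticle members at 2 RPM in an embryo library were highest in 16 to 20 h, and the sum of the 21 cuticle members was highest, 1832 RPM, at 17 to 18 h. Ccp84Ab, whose reads may be shared, gave 1234 RPM of that sum. Without it, a check chosen after the data were seen, the sum was 598 RPM at 17 to 18 h and highest, 1181 RPM, at 19 to 20 h.

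Across the 24 hours, a limma F test of a smooth course called 399 of 404 members (98.8%), where it called 89.8% of all genes.

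**Figure D5:**
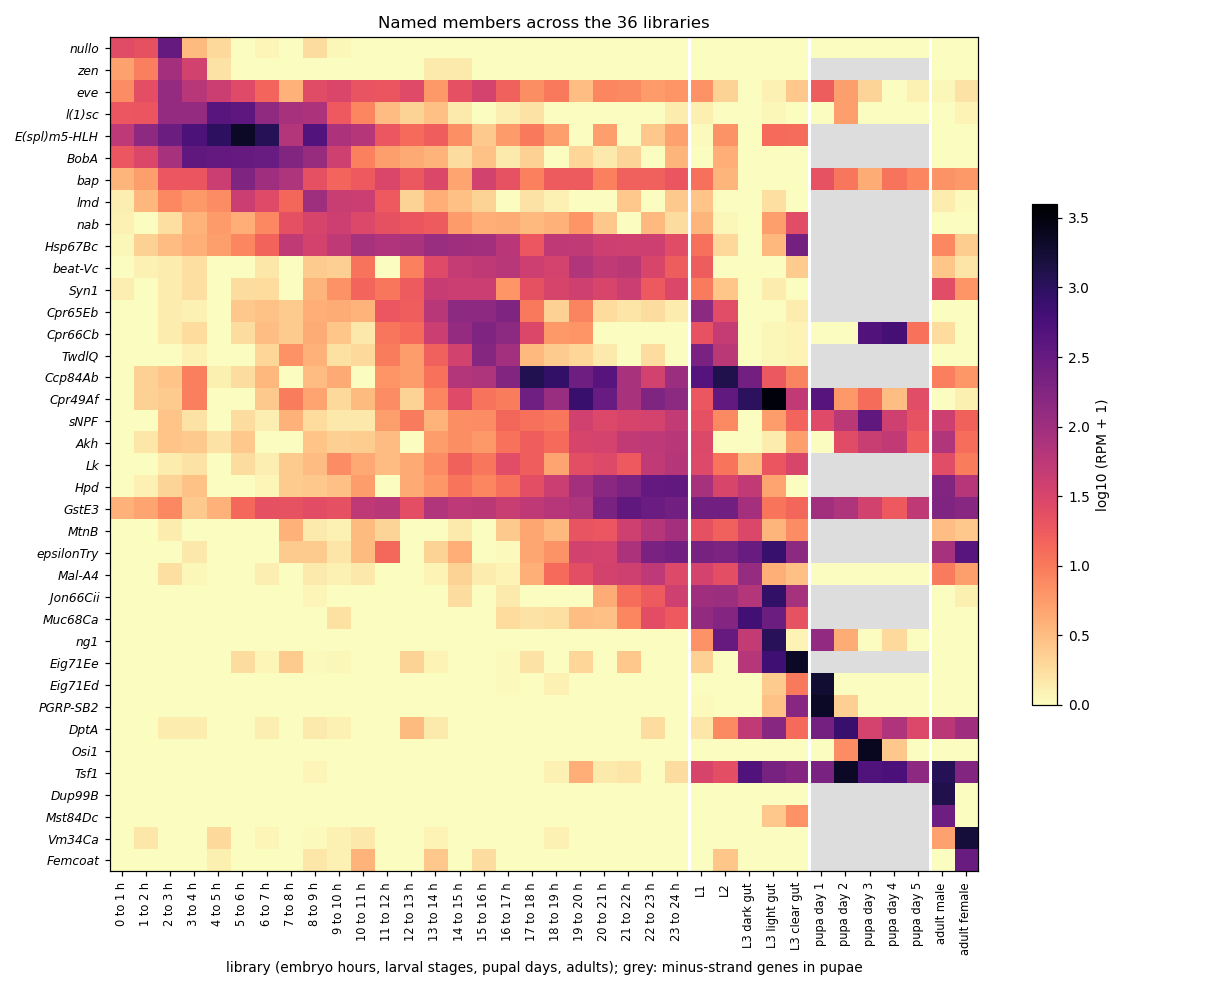
Signal of named members, as log10(RPM + 1), in each of the 36 libraries; grey cells mark minus-strand genes in pupae, whose values are not used. nullo and zen are highest at 2 to 3 h, and epsilonTry is high from the last embryonic windows into larvae.

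The highest member had a CG number and no other symbol in 3 of the 5 larval libraries. Among members with another symbol, the 3 highest were Cpr49Af, Eig71Ee and Jig. Cpr49Af was 18.6, 344, 1007, 3348 and 49.0 RPM in L1, L2 and L3 with dark, light and clear gut, so its peak stood in L3 with light gut and it was low with clear gut. Eig71Ee, an ecdysone-induced gene of the late larval salivary gland and blood cells (3L, 15649114 to 15649128, minus strand), was 1.19, 0, 63, 670 and 2219 RPM in the same order. Jig (3R, 10386689 to 10386706, plus strand) was 3.86, 27.6, 1472, 0 and 0 RPM, nearly all of it in the dark gut library, which had the fewest reads of the larval libraries. ng1, a new-glue gene of the salivary gland (X, 3136440 to 3136456, plus strand), was 5.75, 314, 47.0, 1082 and 0.178 RPM, and Pcp, a pupal cuticle protein gene with a 10 bp peak, climbed to 1344 RPM in L3 with clear gut. The proteases of the late embryo stayed on, with 218, 200, 292, 790 and 141 RPM for epsilonTry and 96.8, 103, 65.3, 896 and 84.6 RPM for Jon66Cii. The summed signal of the 21 cuticle members was 1100 RPM in L1, 2599 RPM in L2 and 3696 RPM in L3 with light gut.

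Several members had nearly all of their pupal signal on 1 day. Osi1, of the Osiris family of membrane-associated proteins in cuticle-forming tissues (3R, 1999263 to 1999274, plus strand), was 0, 6.23, 2435, 1.58 and 0 RPM on days 1 to 5 and was listed at 0 in every embryo, larval and adult library. PGRP-SB2, a peptidoglycan recognition protein (3L, 16719623 to 16719641, plus strand), was 2198 RPM on day 1, 1.31 RPM on day 2 and 0 from day 3. Eig71Ed was 1848 RPM on day 1 and 0 from day 2. Tsf1, the iron-binding transferrin (X, 18281952 to 18281962, plus strand), was present throughout, with 207, 2199, 486, 548 and 138 RPM. The antimicrobial gene DptA, diptericin (2R, 14753268 to 14753279), was 233, 781, 32.8, 69.2 and 27.6 RPM, and Drsl2, of the drosomycin family, was 671 RPM on day 1 and at most 5.29 RPM after it. The plus-strand neuropeptide sNPF was highest on day 3, with 357 RPM, and between 20.6 and 55.7 RPM on the other days. Cpr66Cb, absent from the last embryo windows, returned at 472 RPM on day 3 and 623 RPM on day 4.

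Larvae and pupae were compared on plus-strand genes, rescaled to the plus-strand signal of each library. The RPM values printed below are as listed, before that rescaling. Larval RPM is over both strands and pupal RPM over the plus strand alone, so the printed values stand on unlike scales. Of 226 members of 5405 genes tested, 2 were higher in pupae (0.885%, against 1.48% of all genes) and 14 lower (6.19%, against 1.52%). Over all genes the median log2 difference was 0.62; scaling the libraries by the median of ratios made it 0.44, with 2 members higher and 15 lower. TotB, a Turandot stress peptide (3R, 16699658 to 16699671), was at most 2.49 RPM in larvae and 10.3, 410, 68.8, 64.9 and 16.4 RPM in pupae (5.11 ± 1.14, adjusted p 0.0246, limma). Among those lower, mag, a lipase of the gut (3L, 20453780 to 20453799), was 8.77, 31.9, 494, 345 and 61.3 RPM in larvae and 69.4, 0, 0, 0 and 0.659 RPM in pupae (adjusted p 0.0249, limma), with overlap. Cpr47Eb, a cuticle gene, was 104, 62.4, 112, 9.51 and 0.178 RPM in larvae and 0.226 RPM or less in pupae (adjusted p 0.0341, limma). Mal-A4 was 1.96 to 117 RPM in larvae and listed at 0 in every pupal library (adjusted p 0.0249, limma), and Cyp6d5 was 19.0 to 63.6 RPM and then 0.659 to 15.9 RPM (adjusted p 0.0287, limma). In the fits with 1 changed choice these calls did not all hold. edgeR on the recovered reads called 0 of 5405 genes (780 genes and 77 members at an unadjusted p below 0.05), and leaving out 1 library gave 0 to 14 members higher and 3 to 31 lower.

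The adults had 1 library a sex, so there is no test and no replicate check. Of 380 members at 2 RPM in either sex, 95 (25%) were at least 4-fold higher in the male, against 21.1% of 10930 genes, and 34 (8.95%) in the female, against 10.4%. The median log2 ratio of female to male was -1.23 for members and -0.06 for all genes. Dup99B, a ductus ejaculatorius peptide passed to females in mating (3R, 25541083 to 25541102, minus strand), was 1257 RPM in the male, and Spn28F, a serpin of the seminal fluid, and Acp26Ab, an accessory gland peptide, were 746 and 667 RPM. All 3 were listed at 0 in the female, in all larvae and at most 0.579 RPM in embryos. The 6 seminal fluid members summed to 2960 RPM in the male and 0 in the female. Mst84Dc and Mst84Db, sperm tail proteins of 1 gene cluster with similar copies, were 267 and 134 RPM in the male and 0 in the female. All 3 eggshell members were higher in the female. Vm34Ca, a vitelline membrane protein (2L, 13411618 to 13411634, minus strand), was 1629 RPM against 4.21 RPM in the male, Femcoat 292 RPM against 0 and Vm26Ac 47.8 RPM against 0.

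Other named members with high adult values were Jhbp5, Tsf1 and the immune and odorant-binding genes. Jhbp5, of the family of juvenile hormone-binding proteins (3R, 11871681 to 11871696, minus strand), was 1130 RPM in the male and 275 RPM in the female, and at most 0.839 RPM in any embryo library. Tsf1 was 1117 and 173 RPM. Def, the antimicrobial peptide defensin, was 54.5 RPM in the male and 305 RPM in the female, and DptA 55.3 and 97.2 RPM. The 13 immune peptide members summed to 661 RPM in the male and 635 RPM in the female. Obp56e, an odorant-binding protein, was 220 and 277 RPM, while Obp51a was 181 RPM in the male and listed at 0 in the female, the embryos and the larvae. Neuropeptide members summed to 242 RPM in the male and 68.2 RPM in the female, with Akh at 66.7 and 11.3 RPM and Lk at 24.1 and 8.60 RPM.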

How the data were processed

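RAMPAGE libraries of 36 life cycle stages were analysed from tables that the authors deposited. The table of genic signal holds RPM (reads per 1000000 reads in genic peaks, by the sums of its columns), and the deposited peak lists hold a position, strand and score for 31080 peaks, 24264 of them attributed to genes. STAR and Cufflinks are named without version or role, and build dm3, per the submitters' processing notes; how reads were counted, the treatment of strand, and what the authors' score measures are not given in the sources used here. Peaks carry no library, so width and score describe the pooled series.

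Members were genes with 1 genic peak, at most 20 bp wide, with a score of at least 135. The members and the gene lists were chosen with earlier results of these data known. Symbols were matched for 12088 of the 12698 genes of the table.

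Values were whole multiples of 1 read within 0.01 read for 100% of values in each library, so reads were recovered (698702 to 16690598 a library); the step of the 16 to 17 h library was uncertain, and edgeR fits of embryos left it out. A value after ± is the limma standard error where it follows a log2 change, and an SD over windows where it follows RPM. Both measure spread between neighbouring stages, not counting error alone.

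The main test was limma 3.58.1 (R 4.3.3) on log2(RPM + 1), fold changes being on that scale, which understates changes of low genes. Genes entered that reached 2 RPM in 3 or more libraries. A fit of the 24 embryo libraries as 6 groups left 18 residual degrees of freedom, and a natural spline of the hour had 5. Pupae and larvae were fitted on plus-strand genes. Adjustment (Benjamini-Hochberg) was over all genes tested. The replicates of a group are stages next to each other. Adults were compared as ratios of RPM + 1 at 2 RPM in either sex. edgeR 4.0.16 on recovered reads called 1826, 4522 and 2182 of 9922 genes in the 3 embryo comparisons, 8211 over the course and 0 of 5405 between larvae and pupae. Other alternatives were a pseudocount of 0.25, no filter, median-of-ratios scaling, fewer libraries, and other width, score and RPM limits. The scripts were tested on simulated data.

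Genes named, by rule, have a symbol other than a CG or CR number: the 3 highest per stage class, the 5 largest called rises and falls per comparison, the 3 highest per family of 3 or more members, and the 5 nearest to each limit. Others are named as members of a counted list or said to be chosen by value. Promoter sequences were not analysed here.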

Additional observations from a re-analysis of the deposited data

Results flagged for a closer look

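In all, 75 groups of 4 or 5 libraries were examined, for named members and for the members' share of signal. Of these, 11 held a library that stood apart from the rest by Dixon's criterion at 95%. For normally distributed values chance gives this in about 1 group of 20. That rate does not apply here: 1 value above 0 beside zeros always meets the criterion, and a group of zeros never does. Most were single low values beside listed zeros. In 4 to 8 h, zen had 0.579 RPM at 4 to 5 h, beat-Vc had 0.504 RPM at 6 to 7 h, and both were listed at 0 in the other windows. Cpr65Eb was listed at 0 at 4 to 5 h, with the other windows above 1 RPM. MtnB had 0.387 RPM at 14 to 15 h, spz6 had 0.54 RPM at 21 to 22 h and ChLD3 had 0.37 RPM at 23 to 24 h, and the other windows of their periods were listed at 0. Cpr47Eb had 0.226 RPM on pupal day 4. Higher values stood apart in 4 groups. BobA was lowest of its period at 7 to 8 h with 175 RPM, in the library with the fewest reads, and Syn1 at 12 to 13 h with 16.7 RPM. TotB was highest among larvae in L3 with clear gut, with 2.49 RPM. mag was highest among pupae on day 1, with 69.4 RPM, and at most 0.659 RPM on the other days.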

How the results depend on the processing

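The counts of members higher and lower at 12 to 16 h and at 20 to 24 h, the smooth course and the adult counts stayed within 1.5 times their values under each alternative run. Leaving out each library in turn gave 174 to 219 higher and 17 to 21 lower at 12 to 16 h, 171 to 195 and 45 to 53 at 20 to 24 h, and 393 to 399 members in the course. At 4 to 8 h the 25 members higher became 40 with a pseudocount of 0.25, 48 with edgeR without the 16 to 17 h library and 7 in a fit of only the 8 libraries compared, where the 12 lower became 1; leaving out a library gave 15 to 33 higher and 9 to 12 lower. In pupae against larvae the 2 higher became 1 with a pseudocount of 0.25, 1 without a filter and 0 with edgeR, the 14 lower became 8 without a filter and 0 with edgeR, and leaving out a library gave 0 to 14 higher (most without pupal day 1) and 3 to 31 lower (most without L3 with clear gut). The causes were not tested. Median-of-ratios scaling moved the median log2 difference of all genes at 12 to 16 h from 0.18 to 0.32, with 196 members higher and 15 lower. The median of 7 embryo libraries became 3 at 5 RPM. The share of members highest at 20 to 24 h, 46.2%, became 53.6% at a width limit of 10 bp, 40% at scores below 300 and 51.3% from 300 to below 600. The 35 tested changes of named genes were set beside edgeR and median-of-ratios scaling only, and none reversed. They were not set beside the fit of only the 8 libraries compared. In that fit most calls at 4 to 8 h were lost, so most of the named falls there did not hold in it. With edgeR 30 held and 5 lost the call, all between larvae and pupae (TotB, mag, Cpr47Eb, Mal-A4 and Cyp6d5); with scaling 34 held and Bro was not tested. No paired analysis was possible because the stages carry no replicate numbers in the labels and no stage has a second library. The alternatives for core promoter sequences were not run. Depth limits low values: at the lowest depth, 698702 reads, 1 read is worth more than 1 RPM.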

Other observations

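The following members, not described above, were chosen after their values were seen. fit, a gene of the female head fat body, was 607 RPM in the female library and 16.7 RPM in the male. Muc12Ea was 262 RPM in the female library and listed at 0 in the male, the embryos and the larvae. Obp19c, an odorant-binding protein, was 125 RPM in the female and 0.569 RPM in the male. In the male, lectin-46Cb, a seminal fluid lectin, was 181 RPM and was listed at 0 in the female, and Cyp4d21, a P450 enzyme, was 97.8 RPM, with 11.1 RPM in the female and 0 in the embryos and larvae. TwdlK, a Tweedle cuticle gene, was 169 RPM in L2, 3.23 RPM in L1 and listed at 0 in every L3 library.

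Among the Npc2, yellow and juvenile hormone-binding genes, 5 of 7 members tested were higher at 12 to 16 h than at 4 to 8 h, where 28.3% of all genes were, and 4 of 7 were higher at 20 to 24 h than at 12 to 16 h, where 12.6% of all genes were. Jhbp12 was 32.5 RPM at 14 to 15 h, 614 RPM at 18 to 19 h and 4.82 RPM at 23 to 24 h. Npc2e, of a family of sterol-binding proteins, was 285 RPM on pupal day 1 and at most 0.328 RPM on the later days. The highest member of a library had no symbol other than a CG or CR number in 13 of 24 embryo, 3 of 5 larval, 5 of 5 pupal and 0 of 2 adult libraries.

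The score was set beside the reads of the gene summed over the 36 libraries. The median was 2.88 reads per unit of score for 309 plus-strand members, none below 0.5, and 1.96 for 281 minus-strand members, 14 of them below 0.5. These 14 include CG13050, which has the highest score of all members, 8083, with 78 reads, CG13840 (1068, with 20 reads) and Ptth, the prothoracicotropic hormone gene (236, with 43 reads). The pupal columns list every minus-strand gene at 0, so reads of these genes in pupae cannot be counted here. Whether pupal reads entered their scores was not tested.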
